A study of Mus musculus with 8 samples.

Results

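Gene expression in primary fibroblasts of mouse lung was compared between cells given recombinant TWEAK at 100 ng/ml for 48 hours and cells left untreated for the same time. The comparison rests on 4 of the 8 libraries of the study, 2 labelled 100 ng/ml and 2 labelled untreated, and covers every row with a gene symbol, 52110 of 55335 rows. All cells were wild type and were grown in serum-containing medium, and the other 4 libraries, 2 at 10 ng/ml and 2 at 30 ng/ml, also for 48 hours, serve here as reference points. The labels give neither the age or strain of the animals nor whether the 2 replicates of a group are separate cultures, so the p-values cover the spread of these libraries alone, and that spread may be technical. Levels are CPM, a gene's counts relative to its library total, scaled by the trimmed mean of M-values (TMM). A gene is called when its adjusted p in the quasi-likelihood test of edgeR is under 0.05.

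TWEAK, encoded by Tnfsf12, is a cytokine of the TNF superfamily, and its receptor Fn14 is encoded by Tnfrsf12a. The receptor recruits TRAF adaptors and the cIAP ubiquitin ligases, and it activates the NF-kB transcription factors through the classical route and through the alternative route, in which the product of Nfkb2 is processed to p52 and pairs with RelB. In fibroblasts and other stromal cells TWEAK is known as an inducer of chemokines, adhesion molecules and matrix-degrading enzymes.

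The 8 libraries held 37345575 to 50896445 counts, and the untreated pair (50896445 and 50560049) was deeper than the pair at 100 ng/ml (39417523 and 40480282). Both replicates of every group were kept as separate samples, since their counts differed beyond sampling noise (chi-square per degree of freedom 22.7 to 27.6). The libraries carried the marks of fibroblasts. Col3a1 stood at 7333 to 8952 CPM in the 4 libraries, and of 11 fibroblast markers 0 were called by edgeR, with 4 lower and 0 higher at an unadjusted p under 0.05, a threshold that 5.1% of all genes tested passed as lower and 6.51% as higher. Lymphocyte and red blood cell markers were too low to be tested, and of 13 epithelial markers 8 were, among them Epcam and Sftpc. On the first principal component of log2 CPM the untreated libraries lay at -48.98 and -47.48, the libraries labelled 100 ng/ml at -27.12 and -27.19, those at 30 ng/ml at 35.68 and 25.54 and those at 10 ng/ml at 43.96 and 45.6, so the groups did not fall in the order of dose. The sample codes run in the order untreated, 100, 30 and 10 ng/ml, and the labelled doses are used here. Whether the dose labels match what the cells were given was not tested, so every value at a dose is that of the libraries so labelled.

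At 100 ng/ml 194 of 17360 genes tested were called (1.12%). Of these, 141 rose (0.812% of the genes tested) and 53 fell (0.305%). Counts of called list members given further on stand against these shares. The median log2 change was 1.06 among the genes that rose and -0.693 among those that fell, against 0.002 over all genes tested, and 89 of the 194 had an absolute log2 change of at least 1. Among the rises from untreated levels under 1 CPM were those of Spib, an Ets transcription factor, Mmp9, a gelatinase, Traf1, a TNF receptor adaptor, and Madcam1, an adhesion molecule for lymphocytes. The falls with the largest CPM differences were in Gsn, Sparcl1, Igfbp5 and Timp3. When 1 library was left out, the log2 change of Gsn ranged from -0.78 to -0.61 and that of Sparcl1 from -0.60 to -0.52. Both calls were lost without any 1 of the 4 libraries compared, and that on Sparcl1 also without either 10 ng/ml library. Without the low-count filter neither was called (edgeR adjusted p = 0.066 for Gsn and 0.0569 for Sparcl1). The largest fold among the falls was that of the predicted gene Gm10260, picked out after its values were seen. It had 464 and 149 counts in the untreated libraries and 0 in both at 100 ng/ml, at least 163-fold lower against a floor of 3 counts over the group (edgeR adjusted p = 0.0232). It stood at 0 CPM in both libraries at 10 ng/ml and at 11.3 and 13.05 CPM at 30 ng/ml. Its exon overlaps one of Gm26619, and its call was lost without either 100 ng/ml library (adjusted p = 0.085 and 0.0758). Leaving out each of the 8 libraries in turn kept 58 of the 194 calls every time, 52 rises and 6 falls. Without untreated replicate 1 the number of calls was 91 and without the other untreated library 116, and it was 106 when TWEAK100 replicate 1 and 125 when TWEAK100 replicate 2 was left out. DESeq2 called 558 of the 16044 genes it gave an adjusted p, 352 higher (2.19%) and 206 lower (1.28%). With limma-voom 192 genes were called, 101 higher (0.582%) and 91 lower, and a fit of the 4 libraries alone called 180, 99 higher (0.6%) and 81 lower (0.491%). Rises made up 72.7% of the 194 calls, 63.1% with DESeq2, 52.6% with limma-voom and 55% in the fit of the 4 libraries. Exons of 62 of the called genes overlap those of another gene, and since it is not known whether strand was used in counting, their counts are uncertain.

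**Figure D1:**
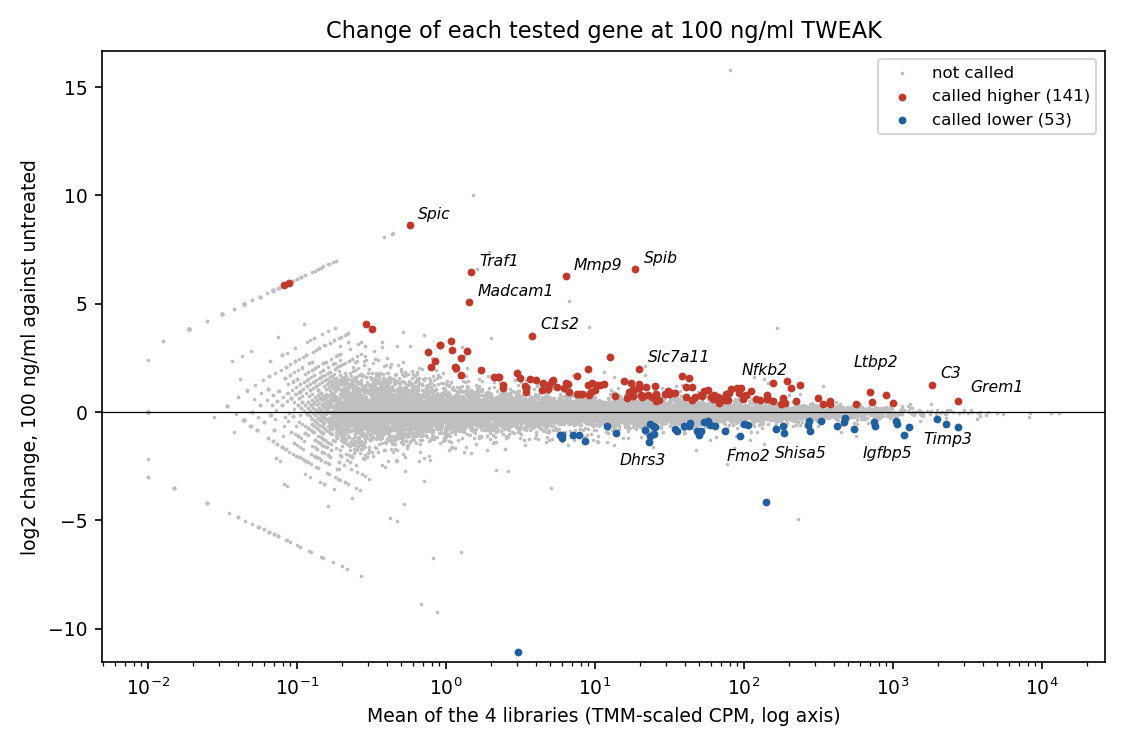
Each point is 1 of the 17360 genes tested, with its mean over the 4 libraries (TMM-scaled CPM, log axis) against its log2 change at 100 ng/ml. Red points are the 141 genes called higher and blue points the 53 called lower, and the largest called rises start from levels near 0.

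The ligand and its receptor differed little. Tnfsf12 stood at 33.4 and 33.6 CPM in untreated cells and at 35.9 and 31.3 CPM at 100 ng/ml, a log2 change of 0.00 ± 0.11 (SE, adjusted p = 0.996 with edgeR). Its exons overlap those of Tnfsfm13. Tnfrsf12a stood at 18.6 and 19.7 CPM in untreated cells and at 21.6 and 22.8 CPM at 100 ng/ml, with both treated libraries above both untreated ones, but its log2 change of 0.21 ± 0.15 did not pass the test (edgeR adjusted p = 0.644). Against the lower doses the receptor was lower at 100 ng/ml, by a log2 difference of -0.56 ± 0.15 from 10 ng/ml and -0.64 ± 0.15 from 30 ng/ml (edgeR adjusted p = 0.0285 and 0.0229). Of 20 tested genes of the TNF superfamily and its receptors 1 rose and 1 fell, with a median log2 change of 0.114. Over all genes tested 0.812% rose and 0.305% fell, with a median of 0.002. Tnfsf11, which encodes RANKL, the osteoclast and lymphoid organiser cytokine, rose from 3.27 and 3.97 CPM to 12.8 and 10.3 CPM (log2 change 1.68 ± 0.20, edgeR adjusted p = 0.00908). Tnfsf15, which encodes TL1A, the ligand of death receptor 3, fell from 10.7 and 13.8 CPM to 4.62 and 5.18 CPM (log2 change -1.32 ± 0.21, edgeR adjusted p = 0.0342). The call on Tnfsf11 was lost without untreated replicate 1 (adjusted p = 0.0792) or TWEAK100 replicate 1 (0.0527). The call on Tnfsf15 was lost without any 1 of the libraries at 0, 10 or 100 ng/ml (adjusted p between 0.0568 and 0.194).

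Nfkb2, the precursor of the alternative-route subunit p52, stood at 61.5 and 59.3 CPM in untreated cells and at 128 and 135 CPM at 100 ng/ml. This was a 2.18-fold rise (log2 change 1.12 ± 0.07, edgeR adjusted p = 0.000759). Nfkbie, an inhibitor of NF-kB that NF-kB itself induces, rose from 6.43 and 6.84 CPM to 14.6 and 17.8 CPM (log2 change 1.29 ± 0.15, edgeR adjusted p = 0.00783), and leaving out untreated replicate 1 ended the call (adjusted p = 0.0716). These were the 2 called genes among 16 subunits, inhibitors and kinases, whose median log2 change was 0.054, and DESeq2 called 5 of the 16. Over all genes, edgeR called 1.12% of those tested, and DESeq2 called 2.19% higher and 1.28% lower. Relb, the partner of p52, stood at 17.6 and 18.0 CPM against 25.2 and 29.5 CPM and did not pass the test (log2 change 0.62, edgeR adjusted p = 0.0659), and neither did Nfkbia (0.57, 0.0887). Nfkb1, Rela, Map3k14, Chuk and Ikbkb had log2 changes between -0.09 and 0.06. Exons of Nfkb2 overlap those of Psd and AC114539.1 on the other strand.

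Among 18 TRAF adaptors, cIAP ligases and ubiquitin editors 3 rose and 0 fell, with a median log2 change of 0.061. Over all genes tested 0.812% rose and 0.305% fell. Traf1, an adaptor that binds TNF receptors together with Traf2, had 3 counts in the untreated libraries together and 232 at 100 ng/ml, which corresponds to levels of 0.0599 and 0 CPM against 3.72 and 2.10 CPM. The ratio of the group levels was 96.9, with 95% counting limits of 32.7 and 473 (edgeR adjusted p = 0.00293). Birc3 and Birc2, which encode the cIAP ligases and lie near each other on chromosome 9, rose to a like extent. Birc3 went from 18.4 and 18.4 CPM to 34.1 and 32.3 CPM (log2 change 0.85 ± 0.08, edgeR adjusted p = 0.00397), and Birc2 from 56.3 and 52.4 CPM to 99.0 and 92.9 CPM (0.82 ± 0.11, edgeR adjusted p = 0.0149). Tnfaip3, the ubiquitin editor A20, stood at 6.11 and 6.56 CPM against 9.15 and 11.9 CPM and did not pass the test (adjusted p = 0.181). The call on Birc2 was lost without either untreated or either 100 ng/ml library (adjusted p between 0.0541 and 0.108), and that on Traf1 with limma-voom (adjusted p = 0.155).

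Transcription factors of other families were among the leading rises. Spib, an Ets factor known from B cells and plasmacytoid dendritic cells, stood at 0.200 and 0.562 CPM in untreated cells and at 37.1 and 36.9 CPM at 100 ng/ml. The log2 change of 6.59 ± 0.29 was among those with the smallest p-values of the comparison (edgeR adjusted p = 0.00012), and it ranged from 6.03 to 7.51 when 1 library was left out. Its relative Spic, an Ets factor known from macrophages that was picked out after its values were seen, had 0 counts in untreated cells and 91 at 100 ng/ml, which is at least 38-fold higher against a floor of 3 counts over the group. Egr2, a zinc finger immediate early factor, rose from 3.44 and 3.79 CPM to 14.1 and 14.7 CPM (log2 change 1.99 ± 0.12, edgeR adjusted p = 0.000759). Junb, an AP-1 subunit, rose from 79.9 and 72.9 CPM to 130 and 132 CPM (0.78 ± 0.09, edgeR adjusted p = 0.00709), a call lost without untreated replicate 2 (adjusted p = 0.0551). Spib, Egr2 and Junb were the called genes among 23 AP-1, ATF, Ets and immediate early genes, whose median log2 change was 0.372, and 14 of the 23 were higher in both treated libraries than in both untreated ones, against 21.9% of all genes tested. Fos, Jun and Egr1 did not pass the test.

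The sequences upstream of some of the called genes are shown, all of them with a match to a motif of NF-kB (kappaB) or of AP-1. Each is the 250 bases before the start site from RefSeq on GRCm38.p6, which is mm10, written 5′ to 3′ on the strand of the gene. Capitals mark matches, on either strand, to the kappaB consensus or to the AP-1 motif TGANTCA. The windows are those of Spib (chr7:44532072-44532321, minus strand), Nfkbie (chr17:45555450-45555699, plus strand), Madcam1, an adhesion molecule described further on (chr10:79664309-79664558, plus strand), and Mmp10, a stromelysin (chr9:7502092-7502341, plus strand).
Spib: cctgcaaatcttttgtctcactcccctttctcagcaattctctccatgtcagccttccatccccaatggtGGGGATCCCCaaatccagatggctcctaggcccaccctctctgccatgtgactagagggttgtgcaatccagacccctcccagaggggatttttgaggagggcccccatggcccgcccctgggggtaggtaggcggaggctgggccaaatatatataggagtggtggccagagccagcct
Nfkbie: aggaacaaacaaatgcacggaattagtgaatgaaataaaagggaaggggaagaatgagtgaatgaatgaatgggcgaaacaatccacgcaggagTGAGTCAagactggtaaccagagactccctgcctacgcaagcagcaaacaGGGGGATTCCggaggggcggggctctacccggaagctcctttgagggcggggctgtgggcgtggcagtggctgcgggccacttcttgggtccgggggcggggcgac
Madcam1: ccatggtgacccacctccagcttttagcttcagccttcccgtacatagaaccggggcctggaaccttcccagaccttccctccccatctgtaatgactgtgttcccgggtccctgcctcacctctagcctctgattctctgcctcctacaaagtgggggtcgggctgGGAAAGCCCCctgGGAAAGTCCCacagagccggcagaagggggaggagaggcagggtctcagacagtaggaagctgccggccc
Mmp10: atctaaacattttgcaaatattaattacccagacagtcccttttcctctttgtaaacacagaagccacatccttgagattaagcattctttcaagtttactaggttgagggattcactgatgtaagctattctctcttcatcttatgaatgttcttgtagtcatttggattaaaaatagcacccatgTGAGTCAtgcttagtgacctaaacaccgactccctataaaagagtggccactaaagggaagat

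In these windows Spib had a kappaB match that starts 180 bases before the start site and Nfkbie 1 that starts 106 bases before it. Madcam1 had 2 neighbouring matches, on the minus strand of the window, that start 83 and 70 bases before the start site. The AP-1 match of Mmp10 starts 63 bases before the start site, and Nfkbie also had 1, 156 bases before. Of 11452 tested genes with a RefSeq promoter 5.62% held a kappaB match, as did 8 of 103 genes that rose (7.77%) and 1 of 36 that fell (2.78%). The AP-1 motif was found in 5.82% of all these genes, in 11 of the 103 (10.7%) and in 1 of the 36 (2.78%). The antioxidant response core TGACNNNGC was found in 14.1% of all, 12 of the 103 (11.7%) and 8 of the 36 (22.2%). The windows of Traf1, Birc3 and Junb, which also rose, held neither a kappaB nor an AP-1 match, and that of Igfbp5, which fell, held a kappaB match. A match is a run of letters and was not tested for binding.

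**Figure D2:**
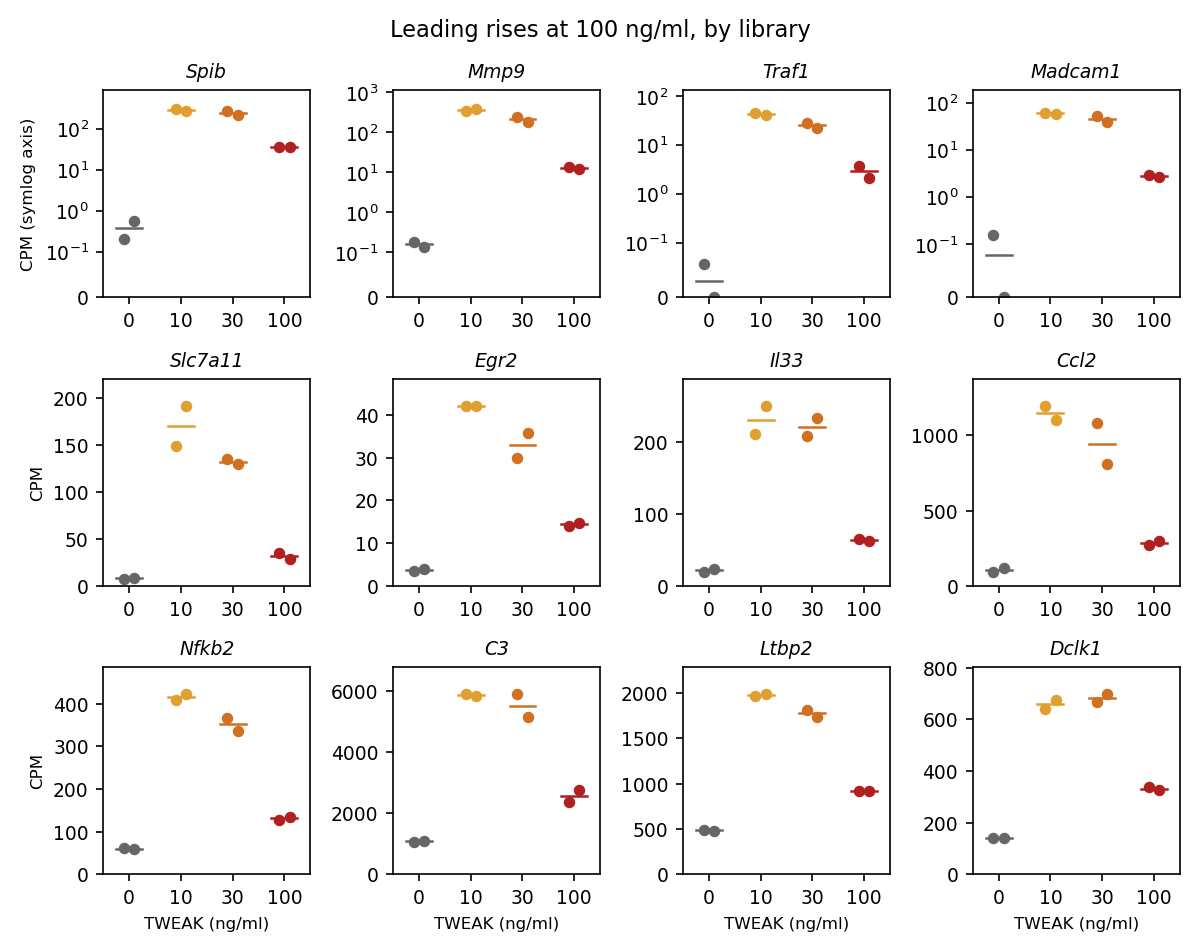
The level (TMM-scaled CPM) of 12 genes that rose at 100 ng/ml, with a point for each library, a bar at the mean of its 2 libraries and the TWEAK dose in ng/ml on the x axis. The 4 genes of the top row have a symlog axis, which is linear below 0.1 CPM, and the others a linear axis from 0. All 12 stood above untreated cells at 100 ng/ml and higher still at 10 and 30 ng/ml.

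Chemokine genes had the highest median change of the 32 pathway lists, 0.731 on the log2 scale over 16 genes tested. Of the 16, 5 rose and 0 fell, against 0.812% and 0.305% of all genes tested. Ccl2, the main attractant of monocytes, stood at 91.5 and 118 CPM in untreated cells and at 270 and 295 CPM at 100 ng/ml (log2 change 1.43 ± 0.16, edgeR adjusted p = 0.00644). Its neighbours in the same cluster, Ccl7 and Ccl8, which also attract monocytes, rose by 1.34 ± 0.13 and 1.05 ± 0.07 on the log2 scale (edgeR adjusted p = 0.00409 and 0.00115). Cxcl16, a membrane-bound chemokine, rose from 38.2 and 37.8 CPM to 66.5 and 64.6 CPM (0.79 ± 0.07, edgeR adjusted p = 0.00341). Ccl5, an attractant of T cells, went from 0.260 and 0.261 CPM to 1.99 and 1.88 CPM (log2 change 2.88, edgeR adjusted p = 0.00973), a call lost without either untreated library or TWEAK100 replicate 1 (adjusted p between 0.055 and 0.0839). Cxcl12, the stromal ligand of CXCR4, stood at 430 and 466 CPM against 469 and 496 CPM and did not pass the test (adjusted p = 0.721), whereas Cxcr4 itself, picked out after its values were seen, rose from 0.539 and 0.622 CPM to 2.04 and 1.83 CPM (log2 change 1.73, edgeR adjusted p = 0.0055).

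Of 21 cytokines, growth factors of blood cells and their receptors 5 rose and 0 fell, against 0.812% and 0.305% of all genes tested. The number of rises was 2 without either untreated or either 100 ng/ml library, 3 in a fit of the 4 libraries alone and 2 with limma-voom. Il33, an alarmin of stromal nuclei, rose from 19.6 and 23.2 CPM to 65.0 and 61.9 CPM, 2.96-fold (log2 change 1.57 ± 0.12, edgeR adjusted p = 0.00137). Its receptor gene Il1rl1 rose as well, from 11.2 and 12.3 CPM to 25.6 and 23.3 CPM (1.06 ± 0.17, edgeR adjusted p = 0.0321). Il34, a second ligand of the macrophage growth factor receptor, rose from 3.0 and 2.53 CPM to 7.36 and 7.98 CPM (1.47 ± 0.16, edgeR adjusted p = 0.00612). Il2rg, the common gamma chain, rose from 0.380 and 0.521 CPM to 1.73 and 2.00 CPM (2.04 ± 0.28, edgeR adjusted p = 0.0156). Csf2, which encodes GM-CSF, had 0 counts in untreated cells and 14 at 100 ng/ml, at least 5.85-fold higher against 3 counts over the group (edgeR adjusted p = 0.0393, between 0.0522 and 0.126 whichever library was left out). Il6 stood at 28.0 and 30.9 CPM against 29.8 and 29.5 CPM (log2 change 0.01, adjusted p = 0.997). The calls on Il1rl1 and Il2rg were lost without either untreated or either 100 ng/ml library (adjusted p between 0.0941 and 0.196 for Il1rl1, which was also lost without a 10 ng/ml library, at 0.0541 and 0.0564, and between 0.056 and 0.115 for Il2rg). They were also lost with limma-voom (0.11 and 0.332). Exons of Il34 overlap those of 2 genes on the other strand, and those of Il2rg overlap Gm20489.

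Madcam1, which encodes the addressin that captures gut-homing lymphocytes, stood at 0.160 and 0 CPM in untreated cells and at 2.89 and 2.68 CPM at 100 ng/ml (log2 change 5.07 ± 0.53, edgeR adjusted p = 0.00505). Its fitted change lay between 4.10 and 9.89 when 1 library was left out, and the call was lost with limma-voom (adjusted p = 0.211) and in a fit of the 4 libraries alone (0.0743). Icam1, a ligand of leukocyte integrins, rose from 129 and 132 CPM to 180 and 186 CPM (0.49 ± 0.08, edgeR adjusted p = 0.0307), a call lost without any 1 of the libraries at 0, 10 or 100 ng/ml (0.058 to 0.185). These were the 2 called genes of 11 adhesion molecules, and Vcam1 stood at 524 and 542 CPM against 577 and 559 CPM (log2 change 0.09, adjusted p = 0.716). In the complement system C3, its central component, rose from 1048 and 1100 CPM to 2375 and 2769 CPM, the largest CPM increase of any called gene (log2 change 1.26 ± 0.08, edgeR adjusted p = 0.00107). C1s2, a C1s protease gene with a near relative in C1s1, rose from 0.719 and 0.481 CPM to 6.86 and 7.003 CPM (3.52 ± 0.24, edgeR adjusted p = 0.00111), and C1s1 stood at 618 and 641 CPM against 734 and 770 CPM (adjusted p = 0.0873). The other 16 complement genes tested were not called.

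Fitted levels of macrophage markers were also higher, with 1 call. All 8 tested of 11 macrophage and dendritic cell markers had a positive log2 change, as had 50.3% of all genes tested, with a median of 1.365. Of the 8, 4 were higher in both treated libraries than in both untreated ones, against 21.9% of all genes tested. Taken library by library, relative to the untreated mean, the median over the 8 was 0.740 and 0.582 at 100 ng/ml. The summed level of the 8 was 15.4 and 11.7 CPM in untreated cells and 27.8 and 24.8 CPM at 100 ng/ml. Cd68, a lysosomal protein, was the called 1 (2.02 and 2.11 CPM against 4.45 and 4.95 CPM, edgeR adjusted p = 0.016, and 0.0556 to 0.113 without any 1 of the 4 libraries), and Lyz2 held most of the sum (11.1 and 8.004 CPM against 19.9 and 15.3 CPM). Ptprc stood at 0.0599 and 0 CPM against 0 and 0.650 CPM and Adgre1 at 0.340 and 0 CPM against 0.528 and 0.200 CPM, and Itgax, Marco and Cx3cr1 were too low to be tested. The part of such cells in the rises of cytokine and chemokine genes was not tested. In bulk RNA more cells of a type and more RNA per cell cannot be told apart, nor can fewer cells and less RNA per cell.

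The leading rise among genes of the antioxidant response was that of Slc7a11, the cystine importer that feeds glutathione synthesis. It stood at 7.57 and 8.24 CPM in untreated cells and at 35.2 and 28.1 CPM at 100 ng/ml, 4.0-fold higher (log2 change 2.00 ± 0.15, edgeR adjusted p = 0.00137). Of 27 tested targets of the transcription factor NRF2 6 rose and 0 fell, and the median log2 change was 0.334. Of the 27, 21 were higher in both treated libraries than in both untreated ones, against 21.9% of all genes tested. The number that rose was 1 without untreated replicate 1 or TWEAK100 replicate 1 and 2 without the other library of either group, and DESeq2 called 10 higher. Hmox1, heme oxygenase, rose from 187 and 179 CPM to 268 and 253 CPM (0.51 ± 0.06, edgeR adjusted p = 0.00922), and Nqo1, a quinone reductase, from 14.6 and 16.4 CPM to 27.3 and 25.3 CPM (0.76 ± 0.10, edgeR adjusted p = 0.0165). Prdx1, a peroxiredoxin, rose by 0.46 ± 0.06 (edgeR adjusted p = 0.0107), and the other called members were Gclc and Pgd. The calls on Hmox1 (adjusted p between 0.0588 and 0.0804) and Nqo1 (0.053 to 0.126) were lost without untreated replicate 1 or TWEAK100 replicate 1, and also without untreated replicate 2 for Hmox1 and TWEAK100 replicate 2 for Nqo1. Those on Prdx1 (0.0552 to 0.0997), Gclc (0.0823 to 0.186) and Pgd (0.0565 to 0.219) were lost without any of these 4 libraries, and that on Pgd also without a 10 ng/ml library.

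Plk2, a polo-like kinase induced by p53 and by growth signals, stood at 74.7 and 75.1 CPM in untreated cells and at 147 and 146 CPM at 100 ng/ml (log2 change 0.97 ± 0.07, edgeR adjusted p = 0.00111). Cdkn2a, the locus of p16 and p19ARF, rose from 7.03 and 5.998 CPM to 12.5 and 11.9 CPM (0.90 ± 0.14, edgeR adjusted p = 0.0317). Plk2 and Cdkn2a were the 2 called genes among 25 p53 targets and inhibitors of cyclin-dependent kinases, against 1.12% of all genes tested. The D-type cyclins, which drive entry into S phase, moved in opposite directions. Ccnd1 rose from 23.7 and 24.8 CPM to 45.6 and 43.8 CPM (0.88 ± 0.12, edgeR adjusted p = 0.0171), while Ccnd2 fell from 519 and 528 CPM to 435 and 428 CPM (-0.28 ± 0.05, edgeR adjusted p = 0.0419). All 24 mitosis genes tested had a positive log2 change, as had 50.3% of all genes tested, with a median of 0.462. Of the 24, 19 were higher in both treated libraries than in both untreated ones, against 21.9% of all genes tested. Ube2c was the called 1 (1.04 ± 0.18, edgeR adjusted p = 0.0494). Top2a stood at 26.3 and 29.8 CPM against 37.3 and 43.3 CPM and Mki67 at 14.5 and 15.3 CPM against 18.9 and 23.7 CPM, and neither passed the test (adjusted p = 0.13 and 0.181). The calls on Ube2c and Ccnd2 were lost whichever of the 8 libraries was left out (adjusted p between 0.0532 and 0.258 and between 0.0538 and 0.228), that on Cdkn2a without any library at 0, 10 or 100 ng/ml (0.0509 to 0.186), and that on Ccnd1 without any at 0 or 100 ng/ml (0.0688 to 0.126).

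**Figure D3:**
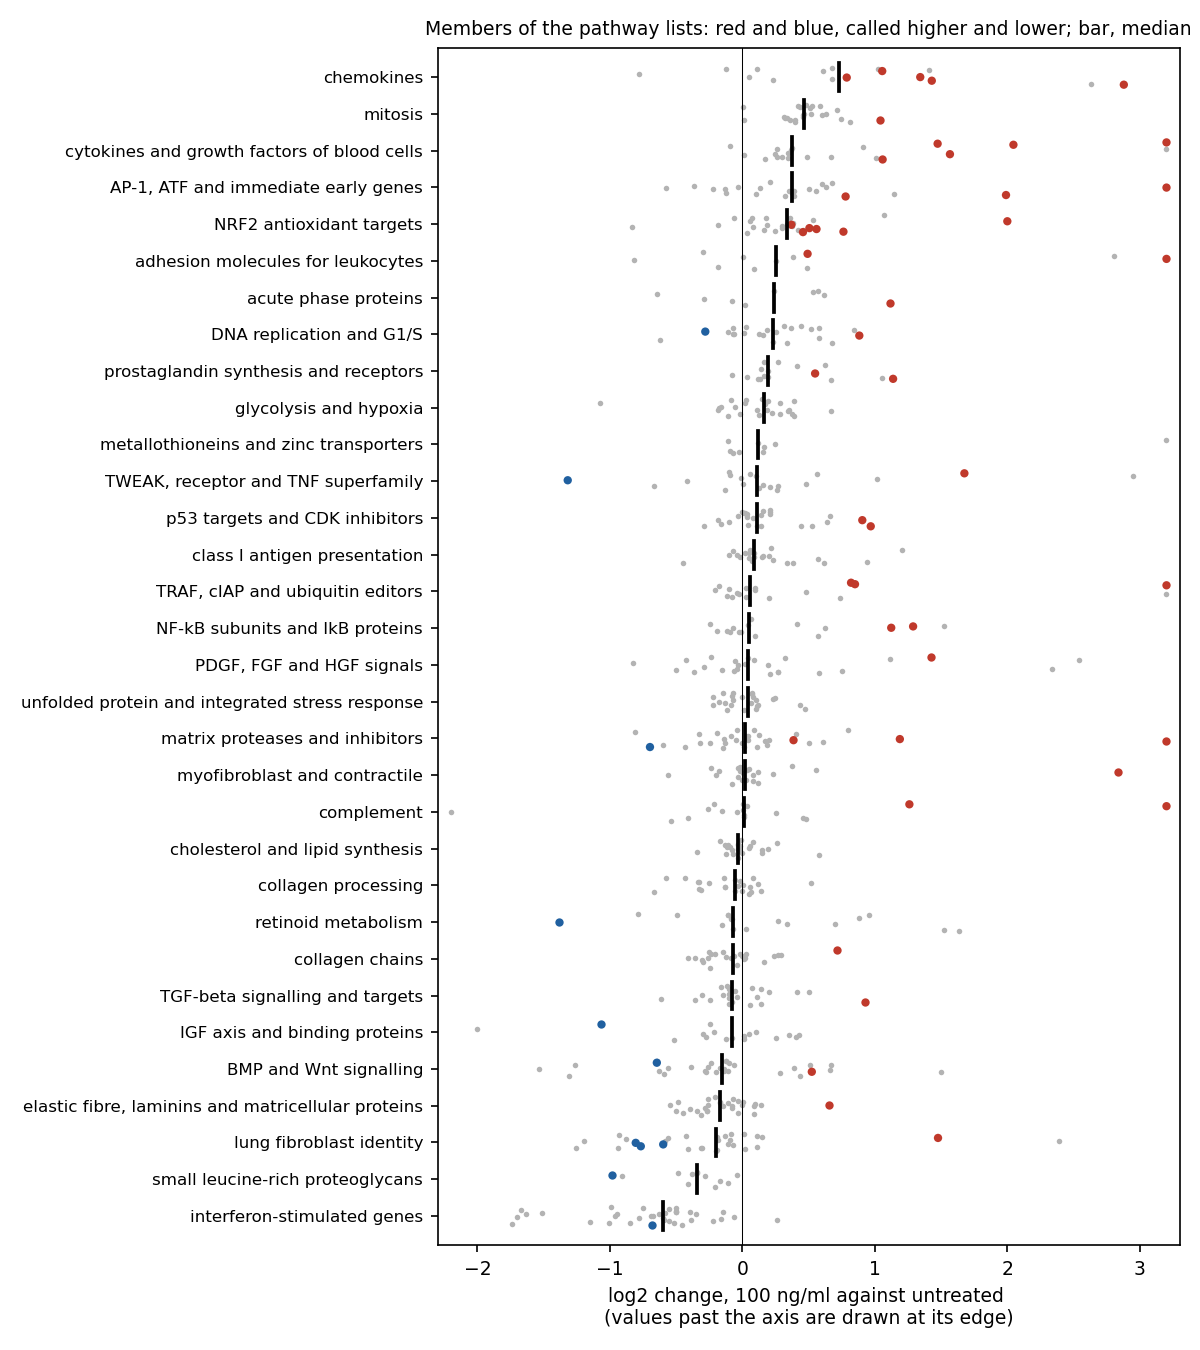
Each row is 1 of 32 lists of genes by pathway or function and each point a tested member, placed by its log2 change at 100 ng/ml against untreated. Red points are members called higher, blue points members called lower, grey points were not called, and the black bar is the median. Medians run from -0.598 for interferon-stimulated genes to 0.731 for chemokines.

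Among matrix-degrading enzymes Mmp9, a gelatinase, stood at 0.180 and 0.140 CPM in untreated cells and at 13.2 and 11.8 CPM at 100 ng/ml, 76.9-fold higher (log2 change 6.26 ± 0.24, edgeR adjusted p = 0.00012, adjusted p = 0.0894 with limma-voom). Mmp10, a stromelysin whose promoter is shown above, rose from 14.6 and 16.3 CPM to 37.0 and 33.3 CPM (1.19 ± 0.09, edgeR adjusted p = 0.00146). The tissue inhibitors of metalloproteinases moved apart. Timp1, the secreted inhibitor that inflammation induces, rose from 327 and 328 CPM to 415 and 440 CPM (0.39 ± 0.05, edgeR adjusted p = 0.0153), while Timp3, which is held in the matrix, fell from 1609 and 1558 CPM to 967 and 986 CPM (-0.70 ± 0.08, edgeR adjusted p = 0.0077). The other 28 of 32 proteases and inhibitors were not called, among them the abundant Mmp3, Mmp2 and Mmp14. The call on Timp1 ended when untreated replicate 1 (adjusted p = 0.126), untreated replicate 2 (0.112) or TWEAK100 replicate 2 (0.0758) was left out, and that on Timp3 without untreated replicate 1 (0.0612) or TWEAK100 replicate 1 (0.0581). Exons of Timp3 overlap those of Syn3.

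Of 24 collagen chains 1 rose and 0 fell: Col5a3 went from 51.9 and 50.01 CPM to 87.7 and 79.5 CPM (log2 change 0.71 ± 0.08, edgeR adjusted p = 0.00849), a call that ended when untreated replicate 1 (adjusted p = 0.0614), untreated replicate 2 (0.0707) or TWEAK100 replicate 1 (0.0521) was left out. Col22a1 and Col6a4, outside this list and picked out after their values were seen, were also called higher. Col6a4 had 3 counts in the untreated libraries together and 44 at 100 ng/ml. When 1 library was left out, the log2 change ranged from 1.75 to 2.54 for Col22a1 and from 3.14 to 7.56 for Col6a4. Neither call stood in every such fit. While 50.3% of all genes tested had a positive log2 change, 16 of the 24 chains had a negative one, with a median of -0.074. At an unadjusted edgeR p under 0.05, 8 were lower and 3 higher, against 5.1% and 6.51% of all genes tested. Col1a1 stood at 4128 and 4049 CPM against 3548 and 3542 CPM (log2 change -0.21, adjusted p = 0.371). All 12 tested small leucine-rich proteoglycans, which bind collagen fibrils, had a negative log2 change, with a median of -0.343. Of these, 8 were lower in both treated libraries than in both untreated ones, against 22.1% of all genes tested, and Aspn was the called 1 (18.7 and 18.1 CPM against 9.22 and 9.45 CPM, log2 change -0.98 ± 0.16, edgeR adjusted p = 0.0312). The call on Aspn was lost without either untreated or either 100 ng/ml library (adjusted p between 0.156 and 0.182). Ogn stood at 575 and 592 CPM against 291 and 330 CPM and did not pass the test (adjusted p = 0.0833). Spp1, which encodes osteopontin, rose from 238 and 249 CPM to 381 and 387 CPM (0.66 ± 0.06, edgeR adjusted p = 0.00293). It was the called 1 of 29 elastic fibre, laminin and matricellular genes, of which 23 had a negative log2 change (median -0.165). At an unadjusted edgeR p under 0.05, 12 of the 29 were lower and 1 higher, against 5.1% and 6.51% of all genes tested. Ltbp2, a microfibril protein related to the binders of latent TGF-beta, rose from 484 and 483 CPM to 917 and 919 CPM (0.93 ± 0.04, edgeR adjusted p = 0.00012), and the 2 libraries of each group lay within 2 CPM of each other. Of 22 myofibroblast and contractile genes 1 was called, Pdlim4, a LIM-domain protein of actin filaments, at 0.380 and 0.301 CPM against 2.59 and 2.30 CPM (2.83 ± 0.26, edgeR adjusted p = 0.00297, adjusted p = 0.0894 with limma-voom).

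Igfbp5, a secreted binder of insulin-like growth factors, stood at 1626 and 1578 CPM in untreated cells and at 706 and 820 CPM at 100 ng/ml, a 2.10-fold fall (log2 change -1.07 ± 0.10, edgeR adjusted p = 0.00265), and the call stood whichever library was left out. Igf1 stood at 228 and 227 CPM against 163 and 154 CPM and did not pass the test (adjusted p = 0.0569). Of 30 fibroblast identity genes 3 fell and 1 rose, with a median log2 change of -0.196, and 1 fell without untreated replicate 1 or either 100 ng/ml library. Itga8, an integrin chain of alveolar fibroblasts, fell from 212 and 202 CPM to 115 and 122 CPM (-0.80 ± 0.08, edgeR adjusted p = 0.00342). Npnt, which encodes nephronectin, the matrix ligand of that integrin, fell from 124 and 130 CPM to 79.4 and 88.8 CPM (-0.60 ± 0.09, edgeR adjusted p = 0.0305), and Limch1 fell by 0.77 ± 0.13 on the log2 scale (edgeR adjusted p = 0.0415). Cd34, a marker of adventitial fibroblasts and of vessel cells, rose from 2.22 and 2.01 CPM to 6.66 and 5.10 CPM (1.48 ± 0.23, edgeR adjusted p = 0.0312). Markers of mesothelium, the lining of the lung, had lower fitted levels, with 7 of 7 log2 changes negative and a median of -0.419. Over all genes tested 50.3% of log2 changes were positive. Of the 7 markers, 0 were called by edgeR and 1 was lower at an unadjusted p under 0.05 (5.1% of all genes tested). Their summed level was 23.5 and 22.7 CPM against 15.5 and 18.8 CPM.

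Dhrs3, which reduces retinal to retinol and is itself induced by retinoic acid, fell from 34.0 and 32.6 CPM to 11.01 and 14.5 CPM, 2.61-fold (log2 change -1.39 ± 0.16, edgeR adjusted p = 0.00836). It was the called gene of 17 in retinoid metabolism. Cmklr1, the chemerin receptor, fell from 67.9 and 67.9 CPM to 34.2 and 30.8 CPM (-1.06 ± 0.11, edgeR adjusted p = 0.00505), and Fmo2, the main flavin monooxygenase of the lung, from 126 and 128 CPM to 68.2 and 50.3 CPM (-1.10 ± 0.13, edgeR adjusted p = 0.00847). Wnt5a, a ligand of non-canonical Wnt signalling, fell from 50.4 and 46.5 CPM to 30.7 and 31.2 CPM (-0.65 ± 0.09, edgeR adjusted p = 0.0218), whereas Grem1, an antagonist of BMP ligands, rose from 2274 and 2204 CPM to 3361 and 3076 CPM (0.52 ± 0.07, edgeR adjusted p = 0.0149). The largest fitted fall among genes that are not predicted ones, that of Pcdhgb1, rests on untreated libraries that differed from each other, at 402 and 128 CPM against 12.6 and 16.9 CPM, and on a gene whose exons overlap those of 25 others of its cluster (edgeR adjusted p = 0.0474). Single libraries also decided several of these calls. Those on Dhrs3 (adjusted p = 0.0612) and Fmo2 (0.0514) were lost without untreated replicate 1, that on Grem1 without untreated replicate 1 (0.0912), untreated replicate 2 (0.108) or TWEAK100 replicate 1 (0.0779), and those on Npnt (0.0654 to 0.173) and Wnt5a (0.0796 to 0.153) without any library at 0 or 100 ng/ml. Cd34 was not called without any library at 0, 10 or 100 ng/ml (0.0566 to 0.182), Limch1 was called only with all libraries or without untreated replicate 2 (otherwise 0.0546 to 0.204), and Pcdhgb1 lost its call without untreated replicate 1, either 30 ng/ml library or either 100 ng/ml library (0.0602 to 0.256).

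Interferon-stimulated genes had lower fitted levels at 100 ng/ml, with 1 call. Of 36 tested 35 had a negative log2 change, with a median of -0.598, while 50.3% of all genes tested had a positive one. Of the 36, 31 were lower in both treated libraries than in both untreated ones, against 22.1% of all genes tested. At an unadjusted p under 0.05 the count was 20 lower and 1 higher, against 5.1% and 6.51% of all genes tested. DESeq2 called 8 lower, the fit of the 4 libraries alone 5, and edgeR 5 without TWEAK30 replicate 1 or TWEAK30 replicate 2. The called 1 was Gbp7, a guanylate-binding protein, which fell from 31.7 and 30.4 CPM to 18.5 and 20.1 CPM (log2 change -0.68 ± 0.12, edgeR adjusted p = 0.0458), and the call was lost without any library at 0, 10 or 100 ng/ml (0.0675 to 0.235). Larger differences were less precise. Ifit1, an antiviral effector picked out after its values were seen, stood at 86.4 and 61.2 CPM against 18.1 and 26.2 CPM (log2 change -1.74, adjusted p = 0.179), and Usp18, the brake on interferon signalling, at 20.5 and 19.5 CPM against 5.58 and 8.43 CPM (-1.51, adjusted p = 0.0597). Relative to the untreated mean, the median over the list was -0.687 and -0.457 in the libraries at 100 ng/ml, -0.400 and -0.717 in those at 10 ng/ml, and 0.106 and -0.489 in those at 30 ng/ml, so the 2 libraries at 30 ng/ml lay on either side of 0. Class I antigen presentation, another target of interferon and NF-kB, had 0 of 23 genes called by edgeR and 3 called higher by DESeq2, with a median log2 change of 0.091. H2-K2, an H2 gene outside this list that was picked out after its values were seen, was called higher. Its log2 change ranged from 0.66 to 0.88 when 1 library was left out. The call on H2-K2 was lost without any library at 0, 10 or 100 ng/ml. At an unadjusted p under 0.05 the 23 listed genes had 5 higher and 1 lower, and 6.51% of all genes tested were higher and 5.1% lower. Glycolysis and hypoxia genes (26 tested, 12 higher and 0 lower at the same threshold), the unfolded protein response (24, 3 and 1), cholesterol and lipid synthesis (25, 3 and 1), collagen processing (24, 2 and 6) and metallothioneins and zinc transporters (9, 2 and 0) also had 0 calls by edgeR. In these lists DESeq2 called 8 glycolysis and hypoxia genes, 1 of lipid synthesis and 1 metallothionein or zinc transporter gene higher and 4 collagen processing genes lower. Counts as small as 3 and 1 of 24 are no result about the list. The 12 of 26 glycolysis and hypoxia genes are not such a count, since 6.51% of all genes tested were higher.

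**Figure D4:**
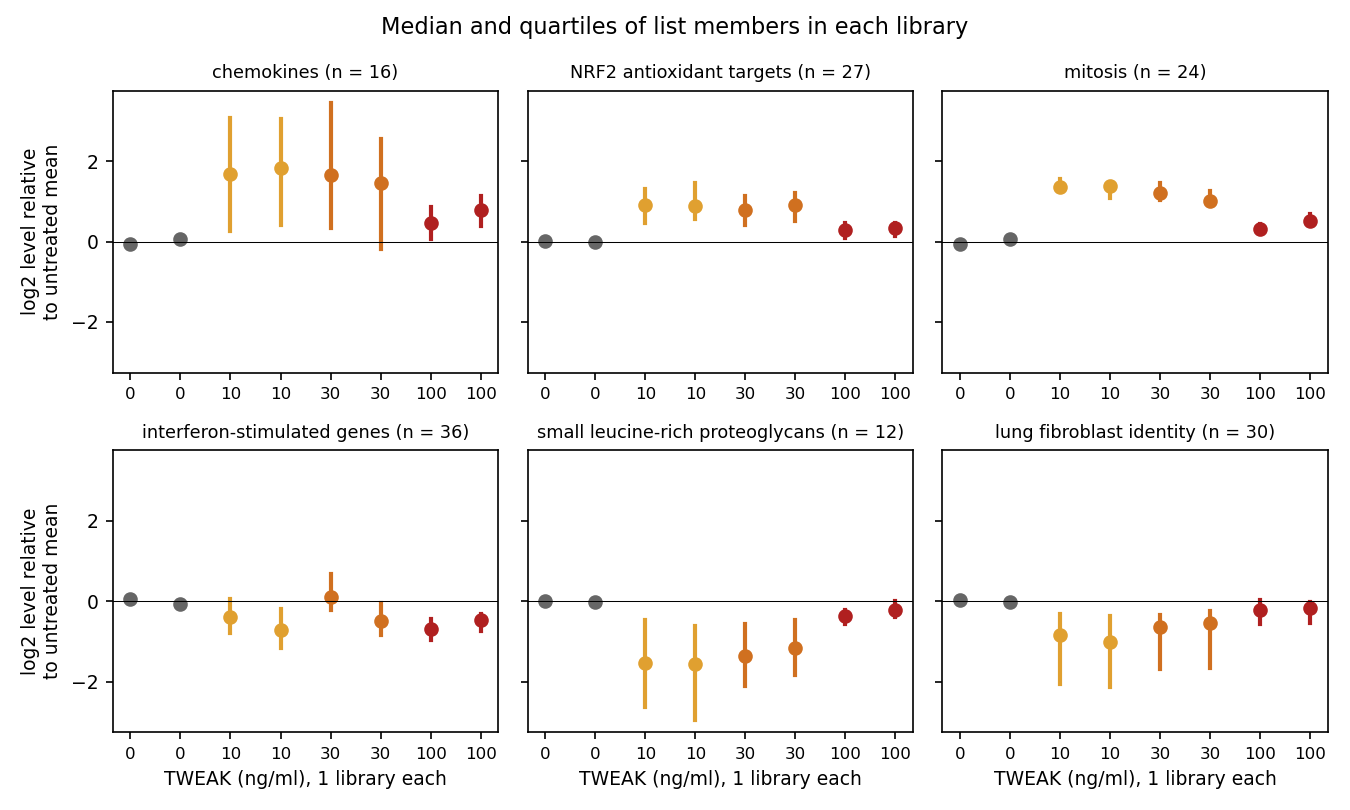
For 6 lists, the median (point) and quartiles (bar) of the log2 level of the members relative to the mean of the 2 untreated libraries, with 1 column for each library and the TWEAK dose in ng/ml on the x axis. At 100 ng/ml the chemokine medians are 0.454 and 0.795 and the interferon-stimulated medians -0.687 and -0.457.

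Most genes called at 100 ng/ml lay between untreated cells and the lower doses. Of the 141 genes that rose, 126 were lower at 100 than at 10 ng/ml by the test between those doses (11.2% of all genes tested) and 124 were lower than at 30 ng/ml (8.04%). Of the 53 that fell, 39 were higher at 100 than at 10 ng/ml (10.7% of all) and 39 higher than at 30 ng/ml (7.15%). These comparisons share the libraries at 100 ng/ml with the comparison that called the genes. Spib stood at 37.1 and 36.9 CPM at 100 ng/ml against means of 291 and 249 CPM at 10 and 30 ng/ml, Nfkb2 at 128 and 135 CPM against 415 and 352 CPM, and Itga8 at 115 and 122 CPM against 24.5 and 32.4 CPM. Each of these differences between doses was called, with edgeR adjusted p of at most 0.000226. For 13 called genes the test separated 100 ng/ml from neither lower dose. Dhrs3 was among them, at means of 10.9 and 9.89 CPM at 10 and 30 ng/ml, with a log2 difference of 0.22 ± 0.16 from 10 ng/ml and 0.36 ± 0.16 from 30 ng/ml (edgeR adjusted p = 0.381 and 0.197). Pcdhb22, a clustered protocadherin at 4.67 and 2.85 CPM in untreated cells and 21.6 and 21.6 CPM at 100 ng/ml (log2 change 2.52 ± 0.21, edgeR adjusted p = 0.00198), stood at means of 17.9 and 19.2 CPM, with log2 differences of 0.27 ± 0.19 and 0.17 ± 0.19 (edgeR adjusted p = 0.369 and 0.637). Exons of Pcdhb22 overlap those of Pcdhb21.

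At 9 called genes the level at 100 ng/ml lay beyond both lower doses. Il6st, which encodes gp130, the signalling chain shared by the receptors of the interleukin-6 family, stood at 688 and 651 CPM in untreated cells and at 1105 and 1172 CPM at 100 ng/ml (log2 change 0.77 ± 0.05, edgeR adjusted p = 0.00115). At 10 and 30 ng/ml its means were 527 and 595 CPM, and the level at 100 ng/ml was higher by 1.11 ± 0.06 and 0.94 ± 0.05 on the log2 scale (edgeR adjusted p = 3.09e-05 and 0.000114). At 10 ng/ml Il6st was below untreated cells by the test (-0.34, edgeR adjusted p = 0.00221), so the 2 doses lay on opposite sides of the untreated level. Chmp3, a subunit of the ESCRT-III membrane scission complex, stood at 62.7 and 50.5 CPM untreated, at means of 42.0 and 46.2 CPM at the lower doses and at 128 and 118 CPM at 100 ng/ml (log2 change 1.12 ± 0.14, edgeR adjusted p = 0.0125). Plpp5, a lipid phosphatase, stood at 21.4 and 20.1 CPM untreated and at 43.7 and 38.6 CPM at 100 ng/ml, at 20.3 and 17.6 CPM at 10 ng/ml and at 17.5 and 22.45 CPM at 30 ng/ml (0.99 ± 0.14, edgeR adjusted p = 0.0195). Apaf1, the scaffold of the apoptosome, rose from 37.1 and 35.6 CPM to 54.1 and 53.4 CPM (0.57 ± 0.08, edgeR adjusted p = 0.0149), and the nuclear matrix protein gene Matr3 from 107 and 125 CPM to 175 and 175 CPM (0.59 ± 0.11, edgeR adjusted p = 0.0494). The other rise was that of the ribosomal protein gene Rpl41, which was picked out after its values were seen (138 and 143 CPM against 226 and 219 CPM, edgeR adjusted p = 0.00485).

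The 3 falls beyond both lower doses were those of Shisa5, Nectin3 and Ing1. Shisa5, a p53-induced membrane protein of the endoplasmic reticulum, stood at 246 and 240 CPM in untreated cells, at means of 213 and 213 CPM at the lower doses and at 136 and 115 CPM at 100 ng/ml (log2 change -0.95 ± 0.10, edgeR adjusted p = 0.00572). Nectin3, a cell adhesion molecule, fell from 44.9 and 42.5 CPM to 25.2 and 24.96 CPM (-0.80 ± 0.08, edgeR adjusted p = 0.00397), and Ing1, a chromatin reader with ties to p53, from 45.0 and 46.0 CPM to 28.5 and 21.6 CPM (-0.86 ± 0.14, edgeR adjusted p = 0.0348). The calls on Il6st, Shisa5, Nectin3 and Rpl41 stood whichever library was left out. Those on Plpp5 (adjusted p between 0.058 and 0.14) and Apaf1 (0.0699 to 0.126) were lost without any library at 0 or 100 ng/ml, and that on Chmp3 without untreated replicate 2 (0.0771) or TWEAK100 replicate 1 (0.073). The call on Ing1 was lost without either untreated library, either 10 ng/ml library or TWEAK100 replicate 2 (0.0712 to 0.165), and that on Matr3 without any library at 0, 30 or 100 ng/ml (0.0615 to 0.264). Exons of Chmp3 overlap 1700040L08Rik and those of Matr3 overlap Gm28285 and AC121821.3.

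**Figure D5:**
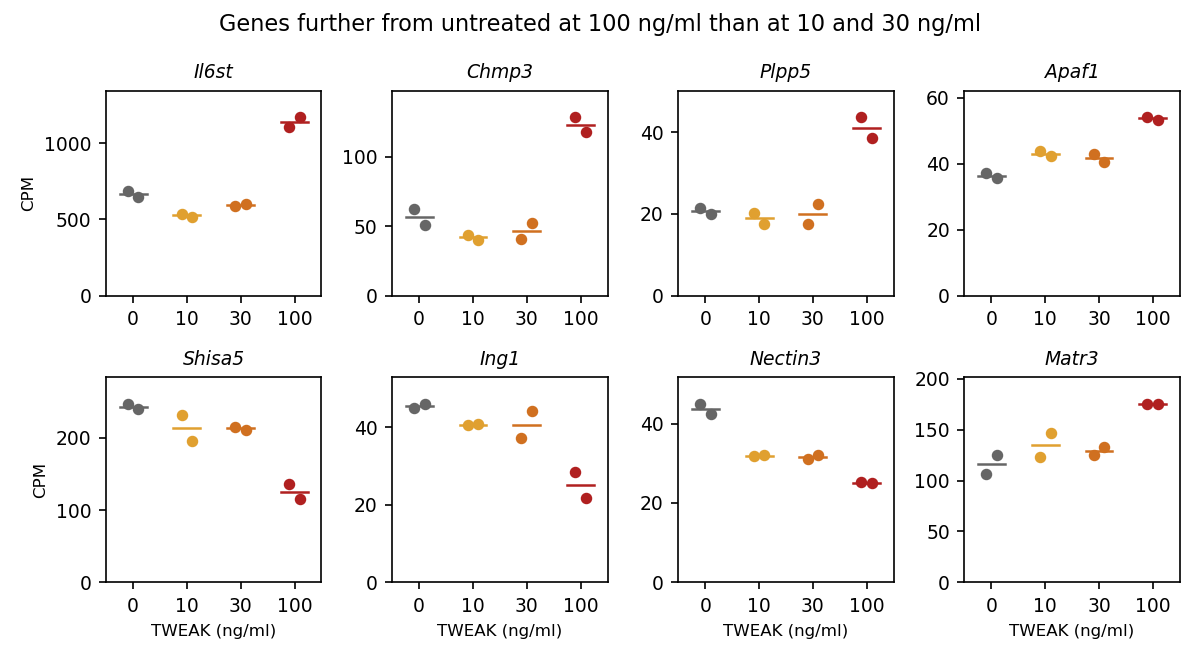
The level (TMM-scaled CPM, linear axis from 0) of 8 genes in each of the 8 libraries, with the TWEAK dose in ng/ml on the x axis and a bar at the mean of each pair. The 2 points at 100 ng/ml lie outside all points at 0, 10 and 30 ng/ml in every panel, for Il6st at 1105 and 1172 CPM.

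Other called rises belonged to further lists or to none. Dclk1, a doublecortin-like kinase that binds microtubules, stood at 143 and 141 CPM in untreated cells and at 338 and 326 CPM at 100 ng/ml (log2 change 1.23 ± 0.06, edgeR adjusted p = 0.00012). Enpp2, which encodes autotaxin, the enzyme that makes lysophosphatidic acid, rose from 17.0 and 19.96 CPM to 61.8 and 55.6 CPM (1.67 ± 0.14, edgeR adjusted p = 0.00198). Nrg1, an epidermal growth factor family ligand, rose from 8.67 and 8.22 CPM to 24.6 and 20.8 CPM (1.42 ± 0.12, edgeR adjusted p = 0.00209), and Hpse, the heparanase that cleaves heparan sulfate, from 11.7 and 11.2 CPM to 28.4 and 27.9 CPM (1.30 ± 0.10, edgeR adjusted p = 0.00149). Serpina3g, a serpin of a family of near copies, rose from 128 and 135 CPM to 267 and 302 CPM (1.11 ± 0.11, edgeR adjusted p = 0.00428). It was the called 1 of 9 acute phase genes tested, and Nrg1 was that of 25 PDGF, FGF and HGF signal genes. In prostaglandin metabolism Ptges, a prostaglandin E synthase, and Slco2a1, the prostaglandin importer, rose by 0.55 ± 0.09 and 1.14 ± 0.14 on the log2 scale (edgeR adjusted p = 0.0305 and 0.0095), as the 2 called of 16 genes. The calls on Dclk1, Enpp2, Nrg1, Hpse and Serpina3g stood whichever library was left out. That on Slco2a1 was lost without untreated replicate 2 (0.0567) or TWEAK100 replicate 1 (0.0574), and that on Ptges without untreated replicate 1 or any library at 10 or 100 ng/ml (0.0526 to 0.175). Exons of Dclk1, Enpp2, Nrg1, Slco2a1, Ltbp2, Spp1, Itga8, Icam1, Junb, Cxcl16, Cd34, Wnt5a, Aspn, Gbp7, Ccnd1, Ccnd2, Ube2c and Csf2 overlap those of another gene.

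On mm10, by the annotation of GENCODE M21, Spib lies on chromosome 7 from 44525993 to 44532071 and Nfkb2 on chromosome 19 from 46304320 to 46312385. Birc2 (7818227 to 7837064) and Birc3 (7848699 to 7873186) lie on chromosome 9, as does Mmp10 (7502352 to 7510240). Il6st lies on chromosome 13 from 112464070 to 112510086, Igfbp5 on chromosome 1 from 72857932 to 72874884 and Dhrs3 on chromosome 4 from 144892827 to 144928209. The table has 1 row for a gene and does not separate exons or isoforms.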

How the data were processed

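RNA of 8 libraries was sequenced, 2 for each of 4 groups, with groups and replicate numbers taken from the sample titles. Raw counts per gene row, not normalized, were deposited as 1 table. The submitters' processing notes name mm10 as the build, and STAR and StringTie without versions. For the counting program, the annotation and the strand setting, nothing is given in the sources used here. Of 55335 rows, 3225 without a symbol (0.168% to 0.178% of the counts) were kept out of library sizes and tests, and 26 symbols turned into dates are not named. Of 80 repeated symbols the row with the most counts carries the plain symbol.

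Genes passing filterByExpr, 17360, went into edgeR 4.0.16 (R 4.3.3) for its quasi-likelihood test, with TMM scaling and 1 fit of all 8 libraries with a mean per group (4 residual and 3.77 prior degrees of freedom). Two-sided p-values were adjusted over all genes tested by the Benjamini-Hochberg method. Standard errors are approximate, being the change divided by the root of F. Folds against 0 counts are lower bounds at 3 counts over the group, and intervals cover counting error only. Alternatives were DESeq2 1.42.0, limma-voom (limma 3.58.1), other scalings and filters, a fit of the 4 libraries alone, the replicate number as a block, a fold threshold, leaving out each library in turn (the lone library of a group is then assumed to vary like the others) and, added after seeing the data, thinning to the lowest total.

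The comparison, the 32 gene lists, the 8 marker lists and the rules were chosen with earlier results of these data known. Tnfsf12 and Tnfrsf12a are always named. Where a called gene averaged 5 CPM or more and its groups did not overlap, the rule took the 20 largest rises and 20 largest falls, the 15 smallest p-values, the 10 rises and 10 falls with the largest CPM difference, and up to 8 genes beyond both lower doses or opposite at 10 ng/ml. From each list it names up to 4 called members with the smallest p, or 2 uncalled. Of the 109 genes so named not all are described. In simulated counts for this comparison (16900 genes), the test called 20.6% at a true fold of 1.5, 76.8% at 2 and 96.8% at 4, with 7 false calls. The changed genes were not drawn from those at the lowest levels, and every gene was given the spread of the fitted trend. These shares therefore do not cover genes at low levels or genes that vary more than the trend.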

Additional observations from a re-analysis of the deposited data

Results flagged for a closer look

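Rows without a gene symbol were outside the comparison, and 1 of them was called higher at 100 ng/ml in a separate fit of all rows. Of 3225 such rows 341 were tested. On library totals without TMM scaling, the row stood at 9.12 and 13.8 CPM in untreated cells and at 28.5 and 28.4 CPM at 100 ng/ml (log2 change 1.30 ± 0.17, edgeR adjusted p = 0.0149). At 10 ng/ml it stood at 39.6 and 37.1 CPM and at 30 ng/ml at 37.0 and 34.9 CPM. No group has enough libraries for a test of single outlying values.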

How the results depend on the processing

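The count of 194 calls (141 higher, 53 lower) was 558 (352 and 206) with DESeq2, 192 (101 and 91) with limma-voom, 180 (99 and 81) in a fit of the 4 libraries alone and 89 (75 and 14) at an absolute log2 change of at least 1. Of the 194 genes, 194 were called by DESeq2, 145 by limma-voom and 121 in the fit of the 4 libraries. Leaving out 1 library gave 91 to 237 calls, 78 to 160 higher and 12 to 77 lower. With the replicate block 136 genes were called (110 and 26), 133 of them among the 194. Deviations of same-numbered libraries correlated between -0.046 and 0.028 over genes. With 2 libraries a group, these values cannot tell whether same-numbered libraries share a culture, an animal or a day. Other scalings, filters and thinning gave 149 to 212 calls, and none moved the median of all genes by over 0.1. Of 95 called genes named by rule, 95 kept the call with DESeq2, 83 with limma-voom, 77 in the fit of the 4 libraries, 72 with the replicate block, 76 without the low-count filter and 90 after thinning, and 0 changed direction. Between 42 and 86 of the 95 were kept when 1 library was left out, and 38 every time. The change of Tnfsf12, 0.00, was below 0 with DESeq2 (-0.00), without the low-count filter (-0.01), after thinning (-0.00), without untreated replicate 1 (-0.00) and without TWEAK100 replicate 1 (-0.10). The cause of these differences was not tested. In the simulation, with 2 libraries a group, most changes of 1.5-fold were missed.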
